A study of Homo sapiens with 24 samples.

Results

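The genes described here are those of sterol and fatty acid synthesis, read on Affymetrix arrays in 2 human B-lymphoblastoid cell lines, GM10861 and GM10855. They were chosen by symbol, with earlier results of these data known. Of 37 listed genes, 34 had a probe set annotated to that gene alone, out of 18417 genes on the array with such a probe set, and the one with the highest mean over 24 arrays stood for the gene. The sterol branch held 16 measured genes, the fatty acid branch 12, and a further set held 6 regulators. FDFT1, ACSL3 and HSD17B7 were not counted here, since they had no probe set of their own.

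Each line was grown for 36 h with calcitriol, with estrogen or with both, or was taken untreated at 0 h, which gave 8 groups of 3 arrays. Calcitriol is the hormonal form of vitamin D. Both lines are HapMap B cells transformed with Epstein-Barr virus, and each comes from 1 donor, so a difference between them belongs to this pair of lines. The sources used here give no dose, estrogen compound or vehicle. Because untreated cells were taken at 0 h alone, the effect of an agent and that of 36 h in culture cannot be told apart in any comparison with them. Whether the 3 arrays of a group stem from separate cultures is not in the labels, so a p-value measures only how these arrays spread, which may be technical. The RNA came from whole cultures, so fewer cells making a transcript and less of it per cell cannot be told apart.

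Cells build cholesterol from acetyl-CoA through the mevalonate pathway, and fatty acids from acetyl-CoA through malonyl-CoA, followed by elongation and desaturation. The SREBP transcription factors, encoded by SREBF1 and SREBF2, switch on both branches: SCAP escorts them to the Golgi for cleavage when sterols are low, and INSIG1 and INSIG2 hold SCAP in the endoplasmic reticulum when sterols are high. Activated and dividing B cells draw on both branches for new membrane.

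Promoters are shown for 6 of the genes. HMGCS1, SCD, ELOVL5, ELOVL6 and ME1 are shown because they had large differences between the lines. FADS1 (0.76) and FADS2 (0.69) differed more than HMGCS1 (0.63) and are not shown. SREBF2 is shown because, of the members whose promoters were read, it alone has the letters TCACNCCAC. Presence of CCAAT did not sort the genes by direction: ELOVL6, FADS1 and FADS2 lack it and were higher in GM10861, and TM7SF2, STARD4 and ACACB carry it and were lower. Each is the RefSeq sequence of the 250 bases before the start of transcription in GRCh38.p14, 5′ to 3′ on the strand of the gene. Capitals mark CCAAT on either strand (ATTGG on the other) and TCACNCCAC. HMGCS1 has 2 listed start sites, and its window was chosen for having the most CCAAT matches. The windows are chr5:43313413-43313662 on the minus strand for HMGCS1, chr10:100346983-100347232 on the plus strand for SCD, chr6:53348951-53349200 on the minus strand for ELOVL5, chr4:110198616-110198865 on the minus strand for ELOVL6, chr6:83431052-83431301 on the minus strand for ME1 and chr22:41832855-41833104 on the plus strand for SREBF2.
HMGCS1: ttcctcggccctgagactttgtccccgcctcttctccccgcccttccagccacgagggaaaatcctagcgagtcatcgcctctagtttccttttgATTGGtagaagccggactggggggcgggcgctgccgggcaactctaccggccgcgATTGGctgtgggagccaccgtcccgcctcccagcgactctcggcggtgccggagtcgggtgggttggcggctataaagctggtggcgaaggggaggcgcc
SCD: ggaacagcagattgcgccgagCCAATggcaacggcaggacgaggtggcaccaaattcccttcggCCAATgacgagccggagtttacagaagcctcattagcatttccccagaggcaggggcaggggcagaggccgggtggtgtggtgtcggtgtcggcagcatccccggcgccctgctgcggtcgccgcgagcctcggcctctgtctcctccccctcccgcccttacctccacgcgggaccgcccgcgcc
ELOVL5: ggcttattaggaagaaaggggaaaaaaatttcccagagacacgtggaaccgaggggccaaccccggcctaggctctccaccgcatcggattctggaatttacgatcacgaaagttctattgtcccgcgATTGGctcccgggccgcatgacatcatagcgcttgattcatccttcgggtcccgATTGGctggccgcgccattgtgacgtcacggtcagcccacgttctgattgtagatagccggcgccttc
ELOVL6: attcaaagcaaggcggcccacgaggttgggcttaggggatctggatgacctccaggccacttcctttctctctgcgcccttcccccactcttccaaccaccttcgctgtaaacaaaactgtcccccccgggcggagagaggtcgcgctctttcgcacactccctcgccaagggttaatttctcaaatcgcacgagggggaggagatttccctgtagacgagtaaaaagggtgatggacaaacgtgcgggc
ME1: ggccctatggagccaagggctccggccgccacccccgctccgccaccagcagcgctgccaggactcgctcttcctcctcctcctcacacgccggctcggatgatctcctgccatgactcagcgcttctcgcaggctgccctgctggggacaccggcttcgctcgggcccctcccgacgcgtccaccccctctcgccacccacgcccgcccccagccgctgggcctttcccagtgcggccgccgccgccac
SREBF2: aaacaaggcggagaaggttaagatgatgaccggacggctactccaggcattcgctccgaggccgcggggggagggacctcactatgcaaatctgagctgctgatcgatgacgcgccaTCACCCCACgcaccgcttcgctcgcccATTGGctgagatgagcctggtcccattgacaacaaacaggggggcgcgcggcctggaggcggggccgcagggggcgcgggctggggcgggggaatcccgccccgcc

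CCAAT gives the letters bound by the factor NF-Y in many promoters of this pathway. Promoters of 31 members were read: FASN and ACAT2 had none listed, and SQLE was dropped by a chromosome filter not applied to the background. CCAAT stood on either strand in 22 of the 31 (71%), against 37% of 27305 genes with promoters of the same length and 32% of 35116 promoters. It was present in 12 of 14 sterol genes, 3 of 6 regulators and 7 of 11 fatty acid genes. In HMGCS1 its first bases lay 155 and 100 bases before the start, in SCD 229 and 186, and in ELOVL5 122 and 68. GGGCGG, the letters of an Sp1 box, stood on either strand in 29 of 31 members (93.5%), against 46.2% of genes and 42.6% of promoters. TCACNCCAC, a short form of a sterol response element, stood in 1 of 31 members, SREBF2 (3.23%), against 1.09% of genes and 0.883% of promoters. None of the 3 motifs contains another. These matches describe letters in the window.

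Values are given as deposited, as the log2 signal of a probe set, so a difference of 1 is a 2-fold difference, and a value is compared here only with the same probe set on other arrays. Array medians lay between 5.38 and 5.50, and arrays of a group correlated at 0.990 to 0.995 over all tested probe sets. Mean signals of the 34 genes ran from 4.36 for ACACB to 9.95, and 26 of the 34 had a mean of 7 or more. The defining B cell markers had means of 7.0 to 10.8, and T cell, monocyte, fibroblast and hepatocyte markers had means of 2.37 to 6.18. On untreated array 1 of each line most members were highest of the 3 arrays, 24 of 34 in GM10861 and 27 of 34 in GM10855, where 59.6% and 58.1% of genes with a mean of 7 or more were, and 40.2% and 43.1% of all genes. Array 1 also led in the GM10855 groups with calcitriol (17 of 34), estrogen (18) and both agents (18). The shares of genes with a mean of 7 or more were 33.1%, 49.1% and 52.6% in the same order. Those of all genes were 32.8%, 37.6% and 34.1%. In GM10861 array 1 led with calcitriol (15 of 34) and both agents (15 of 34) but not with estrogen (5 of 34). There the shares of genes with a mean of 7 or more were 27.2%, 33.2% and 18.8%, and those of all genes 28.0%, 36.3% and 26.5%.

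The clearest pattern among the members was a difference between the lines. Averaged over the 4 agent groups, 28 of 34 genes passed the test between GM10861 and GM10855, 24 higher and 4 lower in GM10861 (limma, adjusted p under 0.05). The lines differed widely in general: 41.8% of all tested probe sets were called, 23.4% higher and 18.4% lower. Among probe sets with a mean signal of 7 or more, 65.4% were called, 46.7% higher and 18.6% lower, and of the 26 members this bright 22 were called, 19 higher and 3 lower. The median difference was 0.22 over the 34 genes, against -0.019 over all genes and 0.0958 over genes with a mean of 7 or more. All 28 called members kept their sign in each of the 4 agent groups taken alone. The call was made on the mean of these same groups, so agreement in sign is partly built in.

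**Figure D1:**
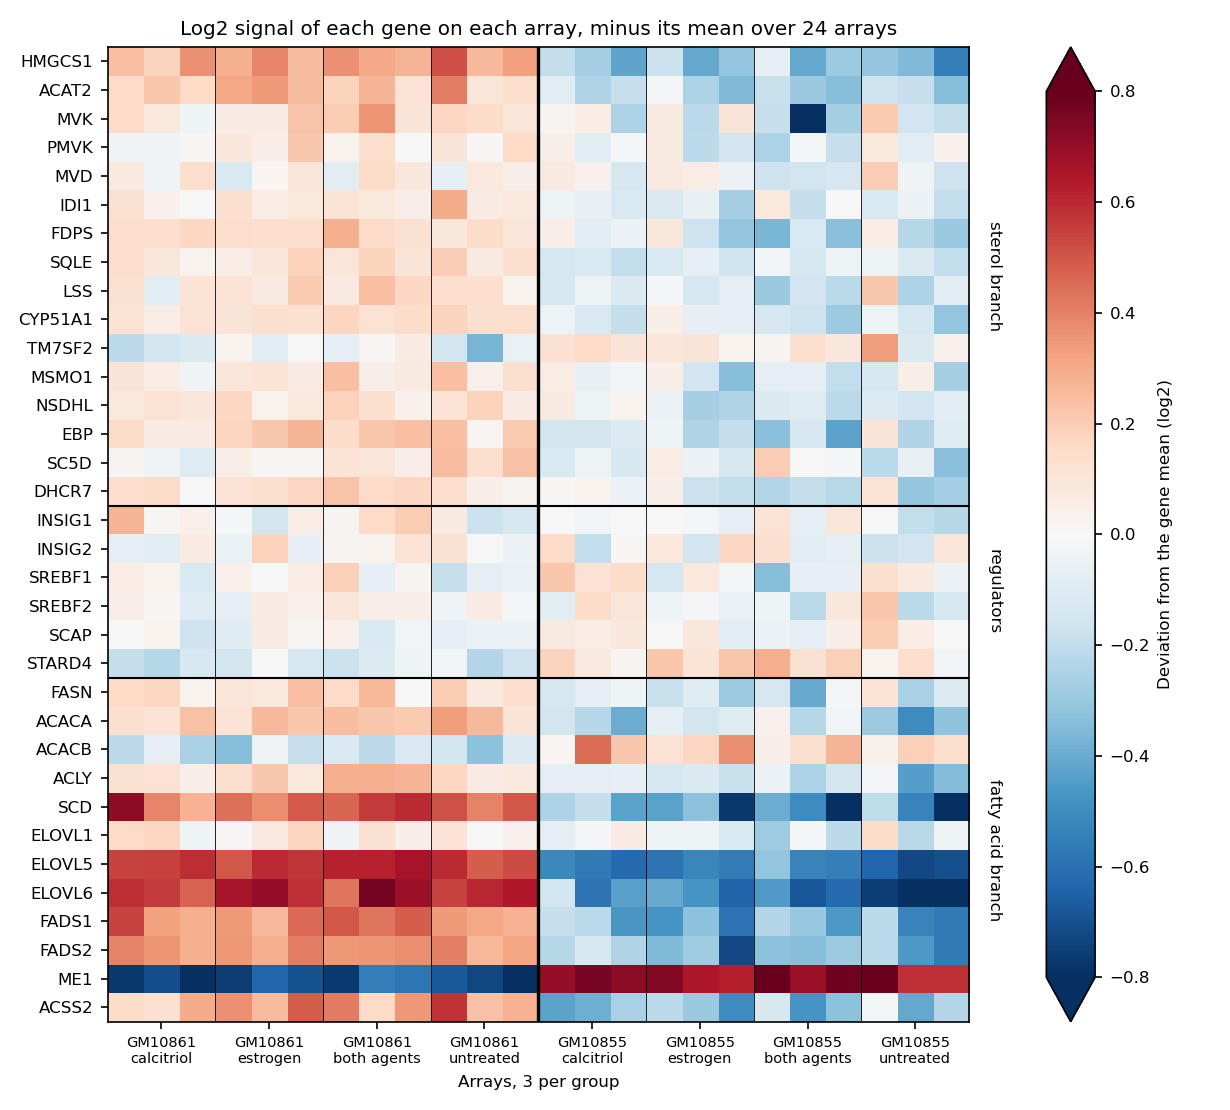
Log2 signal of each of the 34 genes (rows) on each of 24 arrays (columns), minus the mean of the gene over all arrays; red is above and blue below, with colours capped at 0.8 either way. Columns run over GM10861 and then GM10855, each with calcitriol, estrogen, both agents and untreated cells, and the rows change colour at the border between the lines far more than within a line.

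In the fatty acid branch all 12 measured genes differed between the lines, 10 higher and 2 lower in GM10861, with a median of 0.51 on the log2 scale. ELOVL6, ELOVL5 and SCD had the largest differences above 0. ELOVL5, which lengthens polyunsaturated fatty acids, ran from 10.44 to 10.61 with a median of 10.53 in GM10861, against 9.23 to 9.63 with a median of 9.39 in GM10855 (12 arrays each). ELOVL6, which lengthens palmitate to stearate, ran from 6.51 to 6.85 with a median of 6.68 in GM10861, against 4.91 to 5.93 with a median of 5.47 in GM10855. Neither gene had an array of one line within the range of the other. The deposited table holds no detection values, so it is not known whether ELOVL6 stood above background in GM10855. ELOVL5 was 2.20-fold higher in GM10861 (log2 difference 1.14 ± 0.0347, SE; adjusted p = 2.88e-18), and ELOVL6 2.31-fold (1.21 ± 0.0569; adjusted p = 1.29e-14).

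SCD makes oleate by putting the first double bond into stearate. It ran from 9.16 to 9.60 with a median of 9.36 in GM10861, against 8.02 to 8.69 with a median of 8.46 in GM10855, and was 1.93-fold higher in GM10861 (0.95 ± 0.0709; adjusted p = 6.82e-11). FADS1 and FADS2, neighbouring genes for the desaturases of polyunsaturated fatty acids, differed alike. FADS1 ran from 7.94 to 8.22 with a median of 8.02 in GM10861, against 7.09 to 7.50 with a median of 7.29 in GM10855. FADS2 ran from 9.04 to 9.18 with a median of 9.12 in GM10861, against 8.04 to 8.64 with a median of 8.46 in GM10855. The lines did not overlap for SCD, FADS1 or FADS2, and the differences of the FADS pair were 1.69-fold (0.76 ± 0.0508; adjusted p = 9.61e-12) and 1.61-fold (0.69 ± 0.0481; adjusted p = 1.96e-11).

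The enzymes that supply and join the carbon units differed less. ACSS2, which activates free acetate to acetyl-CoA, ran from 6.63 to 7.08 with a median of 6.79 in GM10861, against 6.0 to 6.50 with a median of 6.19 in GM10855 (1.53-fold higher in GM10861; adjusted p = 4.63e-09). ACACA, the acetyl-CoA carboxylase that makes malonyl-CoA for synthesis, ran from 6.94 to 7.17 with a median of 7.05 in GM10861, against 6.33 to 6.87 with a median of 6.65 in GM10855 (log2 difference 0.41 ± 0.0431; adjusted p = 3.33e-08). ACLY, which splits citrate to give cytosolic acetyl-CoA, ran from 9.02 to 9.25 with a median of 9.09 in GM10861, against 8.52 to 8.95 with a median of 8.84 in GM10855 (0.31 ± 0.0426; adjusted p = 1.57e-06). These 3 genes also showed no overlap between the lines. FASN, the synthase that builds palmitate, did overlap, with 6.79 to 7.06 in GM10861 and 6.39 to 6.90 in GM10855 (0.27 ± 0.0505; adjusted p = 0.000118). ELOVL1, an elongase of very long chains, differed least of the branch, by 0.14 ± 0.0454 (adjusted p = 0.0162).

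The 2 fatty acid genes lower in GM10861 were ME1 and ACACB. ME1, the cytosolic malic enzyme that yields NADPH, ran from 6.47 to 6.78 with a median of 6.61 in GM10861, against 7.91 to 8.24 with a median of 8.04 in GM10855. It had the largest difference of the 34 genes, 2.68-fold lower in GM10861 (-1.42 ± 0.0401; adjusted p = 6.63e-19), against the direction of most of its branch. ACACB, the carboxylase at the mitochondrial outer membrane whose malonyl-CoA restrains fatty acid oxidation, was the dimmest member, with 4.02 to 4.32 in GM10861 and 4.38 to 4.81 in GM10855 (-0.36 ± 0.0522; adjusted p = 4.24e-06). With no detection values in the deposited table, it is not known whether its signal stood above background.

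**Figure D2:**
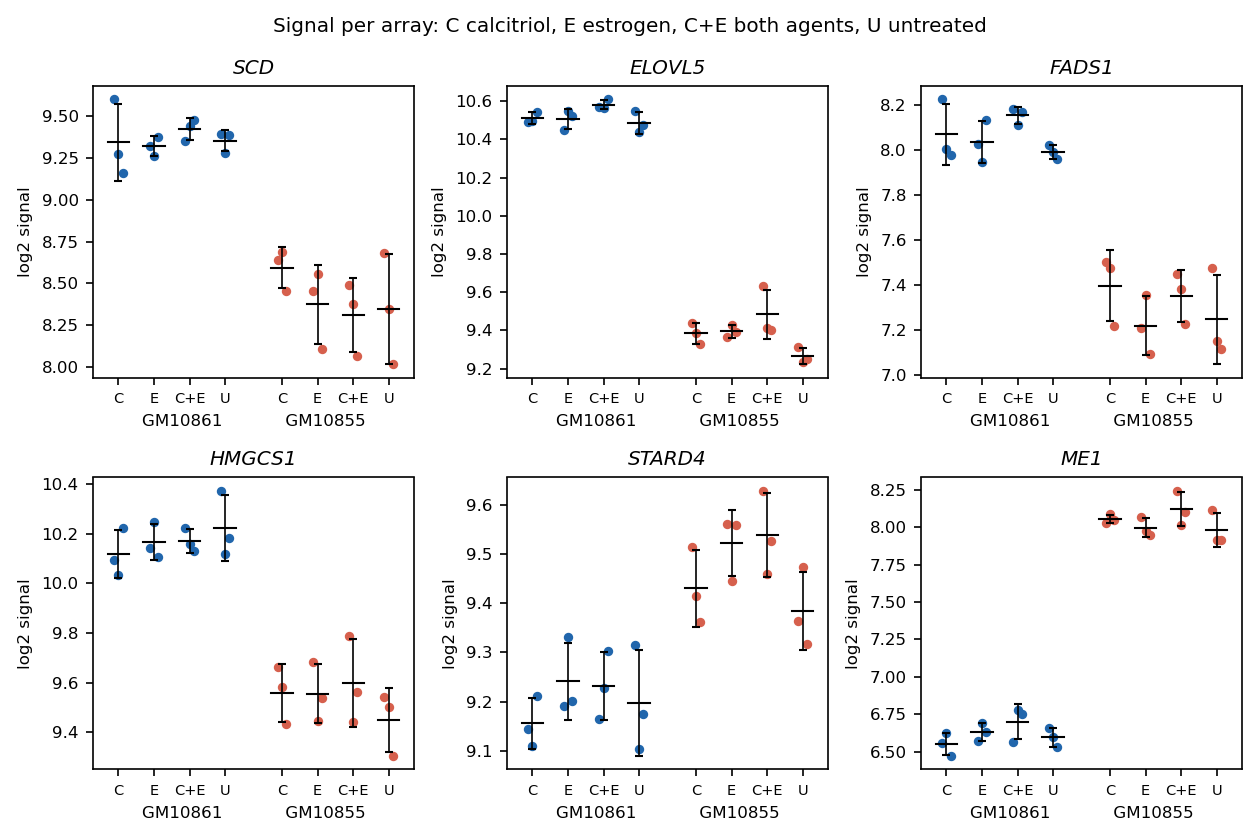
Log2 signal per array of SCD, ELOVL5, FADS1, HMGCS1, STARD4 and ME1 with calcitriol (C), estrogen (E), both agents (C+E) and in untreated cells (U), in GM10861 (blue) and GM10855 (red); bars are means and whiskers SD of 3 arrays. The lines are apart in every agent group for SCD, ELOVL5, FADS1, HMGCS1 and ME1, and come close to each other for STARD4, whose highest GM10861 array (9.33) lies just above the lowest GM10855 array (9.32).

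In the sterol branch 14 of 16 measured genes were higher in GM10861, 1 was lower and 1, MVD, did not pass. HSD17B7, not among the 16, was read only by a probe set shared with HSD17B7P2, which gave -0.0095 (adjusted p = 0.882). The differences of the 16 were smaller than in the fatty acid branch, with a median of 0.22. HMGCS1, which makes HMG-CoA at the entry of the mevalonate pathway, led them. It ran from 10.03 to 10.37 with a median of 10.15 in GM10861, against 9.31 to 9.79 with a median of 9.54 in GM10855, with no overlap (1.55-fold higher in GM10861; 0.63 ± 0.0486; adjusted p = 1.36e-10). ACAT2, the cytosolic thiolase one step before it, ran from 9.16 to 9.48 with a median of 9.26 in GM10861, against 8.71 to 9.05 with a median of 8.85 in GM10855 (0.44 ± 0.0458; adjusted p = 2.35e-08).

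The steps from mevalonate to farnesyl diphosphate gave smaller values. The kinase MVK was higher by 0.27 ± 0.0695 (adjusted p = 0.00254), with 6.01 to 6.40 in GM10861 and 5.19 to 6.26 in GM10855, the 5.19 being a single low array. The second kinase PMVK was higher by 0.13 (adjusted p = 0.0188), and the decarboxylase MVD by 0.07 (adjusted p = 0.264; 95% interval -0.03 to 0.16). IDI1, which isomerises isopentenyl diphosphate, ran from 9.91 to 10.21 with a median of 9.99 in GM10861, against 9.64 to 9.99 with a median of 9.82 in GM10855 (0.19 ± 0.0408; adjusted p = 0.000585). FDPS, which makes farnesyl diphosphate, was higher by 0.29 ± 0.0487 (adjusted p = 2.85e-05). Another pair of probe sets shared by FDPS and its pseudogene FDPSP2 gave 0.22 each. From MVK to FDPS the ranges of the lines overlapped.

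Beyond farnesyl diphosphate the enzymes that close and trim the sterol rings were again mostly higher. SQLE, the squalene epoxidase, ran from 9.56 to 9.73 with a median of 9.63 in GM10861, against 9.33 to 9.51 with a median of 9.41 in GM10855, with no overlap (0.23 ± 0.0341; adjusted p = 5.84e-06). LSS, which folds squalene epoxide into lanosterol, ran from 7.05 to 7.38 with a median of 7.26 in GM10861, against 6.84 to 7.36 with a median of 7.01 in GM10855 (0.22 ± 0.0467; adjusted p = 0.000501). CYP51A1, the lanosterol demethylase, was higher by 0.25 ± 0.0367 (adjusted p = 3.71e-06), and its second probe set by 0.19 (adjusted p = 0.00348). The later enzymes MSMO1, NSDHL, EBP, SC5D and DHCR7 were higher by 0.14 to 0.34, EBP most (adjusted p = 1.24e-06). TM7SF2, a sterol reductase of the ring double bond that lanosterol demethylation leaves, was lower in GM10861 (-0.18 ± 0.0466; adjusted p = 0.00258), with 6.77 to 7.20 in GM10861 and 7.02 to 7.47 in GM10855. LBR, which is no member but catalyses the same reduction, was higher in GM10861 by 0.52 ± 0.0328 (adjusted p = 3.73e-12).

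The regulators did not follow the enzymes. Of 6 genes, none was higher in GM10861 and 1, STARD4, was lower (median difference 0.0098). SREBF1, which encodes the SREBP best known for fatty acid genes, had a median of 6.08 in GM10861 (5.88 to 6.26) and 6.10 in GM10855 (5.73 to 6.28), a difference of -0.02 (95% interval -0.11 to 0.08; adjusted p = 0.804). SREBF2, which encodes the SREBP best known for sterol genes, had a median of 7.08 in GM10861 (6.93 to 7.13) and 7.0 in GM10855 (6.82 to 7.26), a difference of 0.04 (95% interval -0.06 to 0.14; adjusted p = 0.577). INSIG1, itself an SREBP target, gave 0.06 (95% interval -0.03 to 0.16; adjusted p = 0.267), INSIG2 0.04 (adjusted p = 0.618) and SCAP -0.07 (adjusted p = 0.140). STARD4, which carries cholesterol between membranes, ran from 9.10 to 9.33 with a median of 9.20 in GM10861, against 9.32 to 9.63 with a median of 9.47 in GM10855 (-0.26 ± 0.0386; adjusted p = 4.88e-06). The arrays read transcripts, not cleavage of the SREBPs. How far the dim signal of SREBF1 stood above background is not known.

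**Figure D3:**
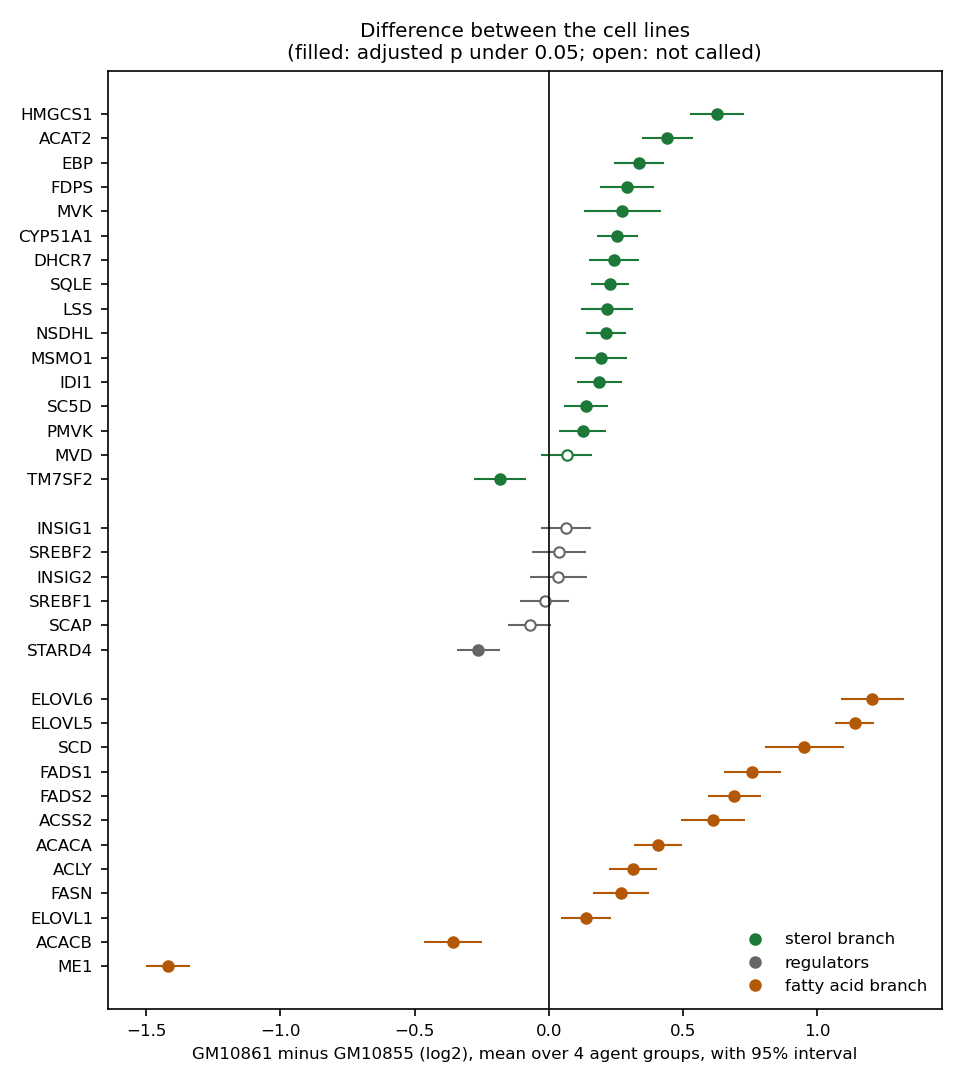
Difference between GM10861 and GM10855 (x axis, log2, mean over the 4 agent groups) with its 95% interval for each of the 34 genes, ordered by size within the sterol branch (green), the regulators (grey) and the fatty acid branch (orange); filled points passed the test and open points did not. Of the 12 fatty acid genes 10 lie right of 0 and ME1 lies farthest left at -1.42, 15 of 16 sterol genes lie right of 0, and 5 of 6 regulators are open.

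Counted by non-overlap, all 12 arrays of GM10861 lay above all 12 of GM10855 for 12 of the 34 genes (7.19% of all tested probe sets) and below them for 2 (3.25%), where 10.4% of probe sets did not overlap either way. The 12 were HMGCS1, ACAT2, SQLE and CYP51A1 of the sterol branch and ACACA, ACLY, SCD, ELOVL5, ELOVL6, FADS1, FADS2 and ACSS2 of the fatty acid branch, and the 2 were ME1 and ACACB. Taking each agent group alone, with 3 arrays a line, 11 members were higher and 4 lower with calcitriol, where 19.0% of all probe sets were called, 10.8% higher and 8.24% lower. With estrogen 15 were higher and 3 lower (19.3%; 12.7% higher and 6.64% lower). With both agents 19 were higher and 3 lower (19.8%; 12.5% and 7.36%), and in untreated cells 16 were higher and 3 lower (24.3%; 16.2% and 8.15%). A set of 12 genes was called in all 4 groups, for which no share over all probe sets was counted. Of all 21214 tested probe sets 5535 had a mean of 7 or more, against 26 of the 34 members. Shares among such bright probe sets were not counted for non-overlap or for single agent groups. HMGCS1 was higher by 0.56 with calcitriol, 0.61 with estrogen, 0.57 with both and 0.77 in untreated cells. SCD was higher by 0.75, 0.94, 1.11 and 1.0 in the same order, and ME1 gave -1.50, -1.37, -1.42 and -1.39.

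A part of the line difference moved with signal strength. Bright genes as a whole were higher in GM10861 by a median of 0.0958, and the same median was 0.0026 after cyclic loess between the arrays. Under cyclic loess 19 members were called higher and 5 lower, and the sterol median was 0.13. Of all genes 39.5% were called under it, 20.5% higher, against 42.3% and 23.6% as deposited. PMVK, IDI1, MSMO1, SC5D and ELOVL1 then no longer passed (adjusted p 0.130 to 0.570), and SCAP passed as lower (-0.12; adjusted p = 0.00665). HMGCS1 remained higher by 0.52, ELOVL5 by 1.03, ELOVL6 by 1.20 and SCD by 0.84 under it. Centring each array on its median left 24 higher and 4 lower.

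Growth genes moved with the line too, beside 23.4% of all tested probe sets called higher and 18.4% called lower. All 7 proliferation markers were higher in GM10861, by 0.47 to 0.85, and their summed log2 signal was 62.1 to 63.7 in GM10861 and 57.5 to 58.8 in GM10855. Of 6 B cell markers 4 were higher and 1 was lower, from 1.73 for CD22 to -0.80 for CR2, with sums of 49.6 to 51.4 in GM10861 and 46.9 to 50.3 in GM10855. Their part in the difference of the lipid genes was not tested.

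The neighbouring pathways, listed by symbol, differed between the lines in both directions. The counts below stand beside 23.4% of all tested probe sets called higher and 18.4% called lower. Of 12 genes that use isoprenoids, 7 were higher and 1 lower, among them RABGGTB (0.26), the subunit of the enzyme that attaches geranylgeranyl to Rab proteins, GGPS1 (0.27), which makes geranylgeranyl diphosphate, FNTA (0.25), ICMT (0.21) and the dolichol synthase subunit DHDDS (-0.30). Of 11 genes of SREBP processing, 3 were higher and 3 lower: MBTPS1, which makes the first cut of an SREBP, gave -0.26, MBTPS2, which makes the next, 0.17, and SEC24A, of the coat that carries SCAP to the Golgi, -0.41. ERLIN2 gave 0.24 and PAQR3 0.28. Of 17 genes of sterol handling 9 were higher and 3 lower, with CYP7B1, an oxysterol hydroxylase, at 1.08, the lysosomal cholesterol exporters NPC1 at 0.79 and NPC2 at -0.63, MYLIP at 0.66 and the cholesterol esterifying SOAT1 at 0.63. Of 24 other fatty acid genes 7 were higher and 4 lower. The elongase ELOVL7 gave -1.74, opposite in sign to ELOVL5 and ELOVL6, while 3 other enzymes of the elongation cycle, HACD3 (0.80), HACD2 (0.58) and HSD17B12 (0.40), were higher, as was ACSL4 (0.40). Each of these named genes passed the test. TECR, the reductase of the last step of that cycle, gave 0.13 and did not pass (adjusted p = 0.0612).

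Averaged over both lines, no member passed the test with an agent. None was called (limma) with calcitriol (0 of 34, where 0.679% of all probe sets were), with estrogen (0 of 34; 0.00%), with both agents (0 of 34; 1.15%) or over all 36 h arrays against 0 h (0 of 34; 0.457%). In each of these 4 comparisons the 95% intervals of all 34 genes lay within 0.5 of 0 on the log2 scale. Changes ran from -0.16 to 0.24 with calcitriol, from -0.06 to 0.24 with estrogen and from -0.15 to 0.20 with both. At an unadjusted p under 0.05 there were 2 members with calcitriol (5.88%, against 6.65% of all genes), 1 with estrogen (2.94%, against 5.22%), 6 with both (17.6%, against 10.8%) and 4 over all 36 h arrays (11.8%, against 7.83%). Among genes with a mean of 7 or more the share with both agents was 17.3%.

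**Figure D4:**
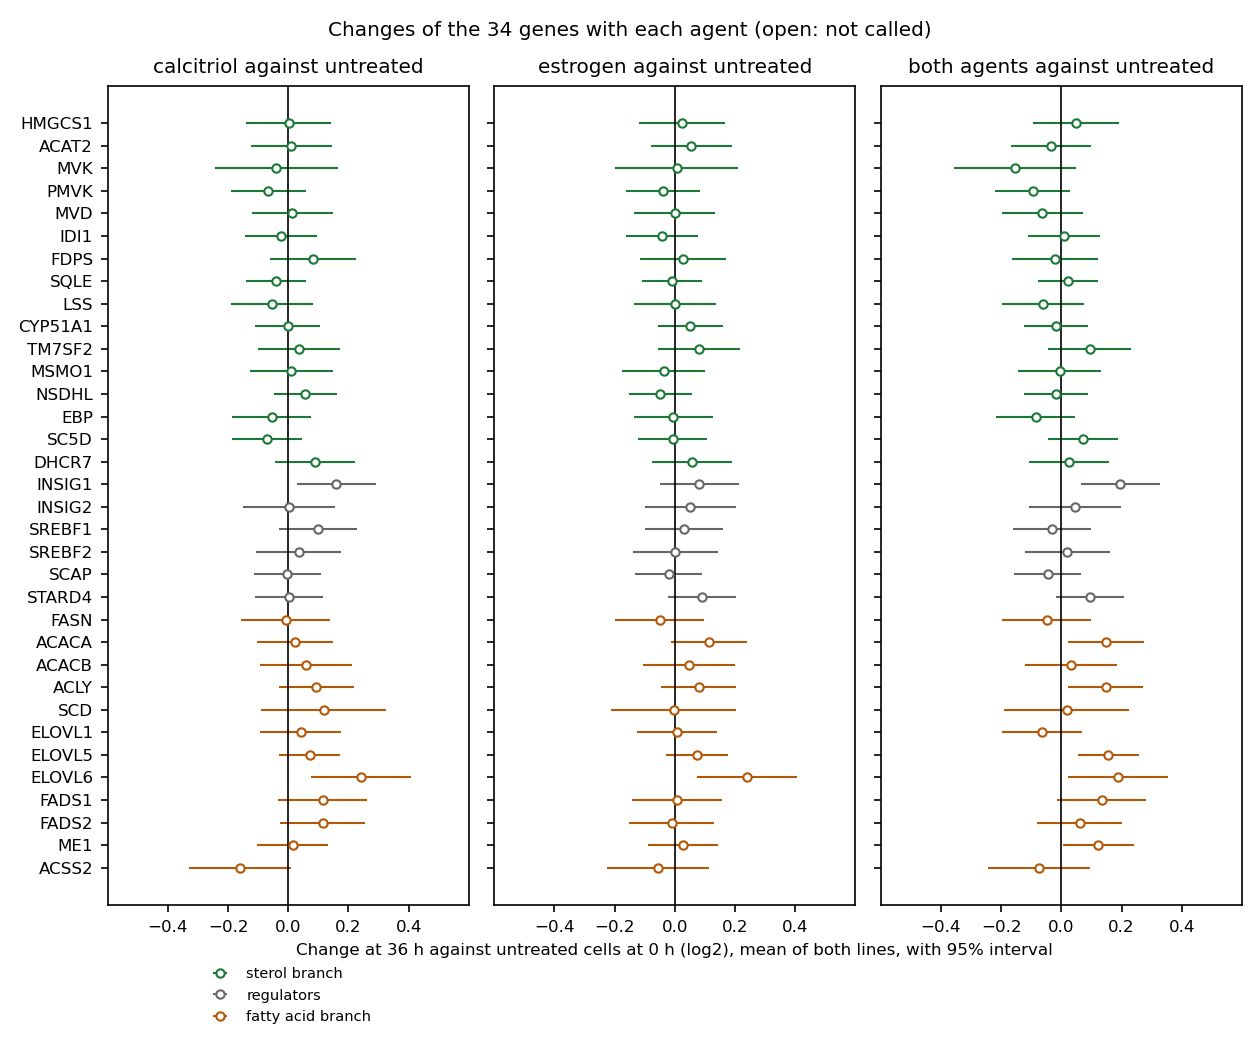
Change of each of the 34 genes against untreated cells (x axis, log2, mean over both lines) with its 95% interval, for calcitriol, estrogen and both agents, with the sterol branch in green, the regulators in grey and the fatty acid branch in orange. Every point is open, meaning not called, and every interval lies within 0.5 of 0.

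With calcitriol the smallest p-values among the members were those of ELOVL6 (0.24 ± 0.0804; adjusted p = 0.347), INSIG1 (0.16 ± 0.0633; adjusted p = 0.589) and ACSS2 (-0.16 ± 0.0819; adjusted p = 0.799). With estrogen they were those of ELOVL6 (0.24 ± 0.0804; adjusted p = 0.789), ACACA (0.11 ± 0.0609; adjusted p = 0.954) and STARD4 (0.09 ± 0.0546; adjusted p = 0.962). With both agents they were those of ELOVL5 (0.16 ± 0.0491; adjusted p = 0.157), INSIG1 (0.20 ± 0.0633; adjusted p = 0.172) and ACLY (0.15 ± 0.0602; adjusted p = 0.331). ELOVL5 passed under a fit with trend and robust estimation (adjusted p = 0.0456), and ACLY once GM10855 untreated array 1 was left out (adjusted p = 0.0372). The comparisons with untreated cells share the untreated arrays, so their values are not independent of each other.

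The 2 branches had medians near 0. On the log2 scale the sterol median was -0.00030 with calcitriol, 0.00049 with estrogen and -0.018 with both. The fatty acid median was 0.064, 0.017 and 0.092 in the same order, and that of all genes was -0.0015, 0.012 and -9.05e-05. Values above 0 were found for 10 of 12 fatty acid genes with calcitriol, 8 with estrogen and 9 with both, and for 8, 9 and 6 of 16 sterol genes.

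INSIG1, one of the most sterol-responsive genes of the pathway, shows the size of these shifts. In GM10861 it had 8.98, 8.71 and 8.74 with calcitriol, 8.70, 8.56 and 8.77 with estrogen and 8.73, 8.86 and 8.90 with both, against 8.78, 8.53 and 8.57 untreated. In GM10855 it had 8.71, 8.68 and 8.70 with calcitriol, 8.71, 8.69 and 8.64 with estrogen and 8.82, 8.63 and 8.80 with both, against 8.70, 8.51 and 8.48 untreated. In GM10861 the untreated arrays at 8.78 and 8.57 lay within the range of the treated ones, and that at 8.53 lay below it. In GM10855 only the untreated array at 8.70 lay within that range, and those at 8.51 and 8.48 lay below every treated array. Over all 36 h arrays the change was 0.15 ± 0.0517 (adjusted p = 0.390), with 8 of 9 treated arrays above the untreated mean in GM10861 and 9 of 9 in GM10855.

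The treated groups were all taken at 36 h, and no member passed in comparisons among them. Calcitriol added to estrogen gave 0 of 34 (0.754% of all probe sets called), with INSIG1 at 0.11 ± 0.0633 (adjusted p = 0.709), FADS1 at 0.13 ± 0.0719 (adjusted p = 0.725) and ME1 at 0.10 ± 0.0567 (adjusted p = 0.744). Estrogen added to calcitriol gave 0 of 34 (0.00%), with SC5D, which desaturates the sterol ring late in the pathway, at 0.14 ± 0.0558 (adjusted p = 0.535), SREBF1 at -0.13 ± 0.0628 (adjusted p = 0.597) and ACACA at 0.13 ± 0.0609 (adjusted p = 0.598). Calcitriol against estrogen gave 0 of 34 (0.570%), with NSDHL at 0.10 ± 0.0510, FADS2 at 0.13 ± 0.0681 and STARD4 at -0.09 ± 0.0546 (adjusted p 0.673 to 0.789). All 34 intervals again lay within 0.5 of 0. The interaction of the agents gave 0 of 34 (0.00%), with ELOVL6 at -0.29 ± 0.114, SC5D at 0.15 ± 0.0790 and SREBF1 at -0.16 ± 0.0888 (adjusted p = 0.992 each).

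The arrays did register a lipid gene outside the 34. ACSL1 is an acyl-CoA synthetase that activates long-chain fatty acids. It was the 1 gene called with calcitriol among the 24 other fatty acid genes (0.679% of all probe sets). In GM10861 it had 8.83, 8.83 and 9.05 with calcitriol, against 8.71, 8.47 and 8.57 untreated. In GM10855 it had 9.14, 9.13 and 9.20 with calcitriol, against 8.28, 8.12 and 8.22 untreated. No calcitriol array of a line overlapped its untreated arrays. The change was 1.55-fold over both lines (0.63 ± 0.0637; adjusted p = 1.19e-06), 0.73 with both agents (adjusted p = 9.08e-08), 0.62 for calcitriol added to estrogen (adjusted p = 1.66e-06) and 0.10 with estrogen (adjusted p = 0.962). Of the other lists, FBXW7, a ubiquitin ligase subunit that marks nuclear SREBPs for decay, was called with both agents (0.31; adjusted p = 0.00431) and for calcitriol added to estrogen (0.26; adjusted p = 0.0323), and NPC1 with both agents (0.28; adjusted p = 0.0245). That made 1 of 11 and 1 of 17 in their lists with both agents, where 1.15% of all probe sets were called. For calcitriol added to estrogen the share of all probe sets was 0.754%.

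Within single lines 1 member was called. In GM10855 ELOVL6 had 5.93, 5.49 and 5.65 with calcitriol, 5.68, 5.61 and 5.44 with estrogen and 5.63, 5.41 and 5.46 with both, against 5.33, 4.91 and 5.22 untreated. All 9 treated arrays lay above all 3 untreated ones. In GM10861 it had 6.67, 6.64 and 6.56 with calcitriol, 6.74, 6.79 and 6.67 with estrogen and 6.51, 6.85 and 6.77 with both, against 6.62, 6.68 and 6.72 untreated, with overlap. In GM10855 the rise was 0.43 ± 0.0928 over all 36 h arrays (adjusted p = 0.0286; 1 of 34 members, 0.509% of all probe sets) and 0.54 ± 0.114 with calcitriol (adjusted p = 0.0239; 1 of 34, 0.509%). In GM10861 the 36 h change was 0.01 (adjusted p = 0.996; 0 of 34, 0.0896%), and with calcitriol 0 of 34 were called (0.104%).

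The ELOVL6 call rests on few arrays and on signals whose height above background is not known. It was lost in 4 of 12 fits that each left out 1 array for the 36 h comparison (adjusted p up to 0.341), and in 4 of 6 for calcitriol (up to 0.235), in both cases most without GM10855 untreated array 2, the lowest at 4.91. The arrays whose loss ended the call were untreated 2 and 3, estrogen 1 and both 1 for 36 h, and untreated 2 and 3 and calcitriol 1 and 3 for calcitriol, all of GM10855. Without GM10855 untreated array 1, ACLY was called beside ELOVL6 with calcitriol (0.32; adjusted p = 0.0411). The call was also lost when only the arrays compared entered the fit (adjusted p = 0.197 and 0.391) and when all probe sets were tested (0.0680 and 0.0601). The difference between the lines in the 36 h change was -0.42 ± 0.131 for ELOVL6 (GM10861 minus GM10855; adjusted p = 0.413), and that in the calcitriol change -0.59 ± 0.161 (adjusted p = 0.479), so a difference in response between the lines was not shown.

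Across the members, 0 of 34 differed between the lines in the 36 h change (0.00471% of all probe sets called) or in the calcitriol change (0.00943%), and likewise 0 of 34 in the change with estrogen (0.00%) or with both agents (0.0141%). The smallest p in the 36 h comparison was that of SC5D, whose treated arrays lay on opposite sides of the untreated mean in the 2 lines. In GM10861 SC5D had 8.54, 8.48 and 8.41 with calcitriol, 8.57, 8.53 and 8.53 with estrogen and 8.63, 8.61 and 8.57 with both, against 8.76, 8.65 and 8.75 untreated. In GM10855 it had 8.39, 8.48 and 8.39 with calcitriol, 8.58, 8.47 and 8.39 with estrogen and 8.72, 8.51 and 8.50 with both, against 8.30, 8.45 and 8.18 untreated. All 9 treated arrays lay below the untreated mean in GM10861 (mean shift -0.18) and all 9 above it in GM10855 (0.18). The difference of the shifts was -0.36 ± 0.0912 (unadjusted p = 0.000636, adjusted p = 0.307). ACACA came next after ELOVL6 in this comparison (-0.26 ± 0.0995; adjusted p = 0.524), and ACLY in that of calcitriol (-0.20 ± 0.120; adjusted p = 0.794).

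**Figure D5:**
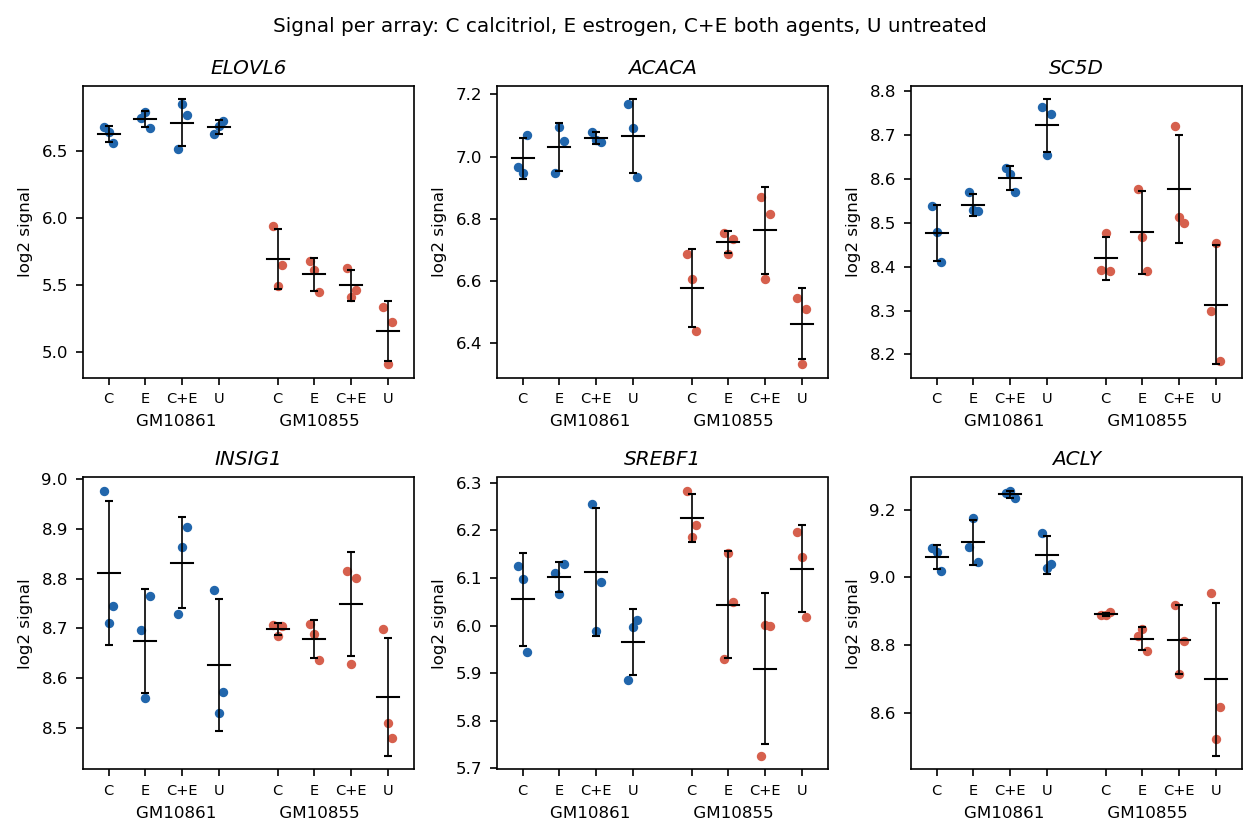
Log2 signal per array of ELOVL6, ACACA, SC5D, INSIG1, SREBF1 and ACLY with calcitriol (C), estrogen (E), both agents (C+E) and in untreated cells (U), in GM10861 (blue) and GM10855 (red); bars are means and whiskers SD of 3 arrays. The 9 treated GM10855 arrays of ELOVL6 lie above its 3 untreated ones, and for SC5D the treated arrays lie below the untreated mean in GM10861 and above it in GM10855.

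Within groups, pairs of genes of the 2 enzyme branches had higher average correlations than pairs of regulators, given here as a description. After the mean of each group was removed, the correlation between a pair of sterol genes over 24 arrays averaged 0.31 (120 pairs), that between a pair of fatty acid genes 0.30 (66 pairs), and that of a sterol with a fatty acid gene 0.26 (192 pairs). Pairs of regulators averaged 0.036. Pairs of all genes averaged 0.017, and pairs of genes with a mean of 7 or more 0.13. The points share arrays, their scaling and their signal strength. Without GM10855 untreated array 1, on which 27 of 34 members were highest of the 3, the averages were 0.22 for the sterol genes, 0.18 for the fatty acid genes, 0.13 between the branches, 0.0047 for the regulators and 0.11 for bright genes.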

How the data were processed

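Expression was measured on 24 arrays, 3 for each of 8 groups of cell line and agent. The authors deposited a log2 signal for each probe set. The submitters' processing notes name RMA and Affymetrix Expression Console 1.0.1. RMA makes the distributions of arrays equal, which takes out a shift common to most genes, and it compresses the changes of dim probe sets. No genome build or annotation is given in the sources used here, nor which arrays were normalised together. The number of arrays limits the precision.

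Of 33297 probe sets, 19460 had 1 symbol, 1754 several and 12083 none. A model with 1 mean per group was fitted with limma 3.58.1 in R 4.3.3 to the deposited log2 values (16 residual and 6.73 prior degrees of freedom). Two-sided p-values were adjusted by Benjamini-Hochberg over the 21214 probe sets with a symbol, and calls were made at 0.05. The fit was tested on simulated data. Errors are standard errors unless stated. Differences between the lines are coded GM10861 minus GM10855.

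The members and lists were chosen with earlier results of these data known. Every member is named. The called ones are described, the 10 with the smallest p where more pass, or the 3 with the smallest p where none passes, with HMGCS1, SQLE, IDI1, LSS, INSIG1, SREBF1, SREBF2, FASN, SCD, ACACA, ACLY, FADS1 and FADS2 always, and up to 5 called genes of each other list. CD22, CR2 and the genes named under other settings were added after their values were seen. Alternatives were centring, cyclic loess, a mean signal of at least 5, all probe sets, trend and robust estimation, array weights, only the arrays compared, a change of at least 0.5 and leaving out each array. Line differences within agent groups, the share among bright probe sets and correlations without 1 array were added after seeing the data. Promoters were read with Python 3.11.15.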

Additional observations from a re-analysis of the deposited data

Results flagged for a closer look

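In 11 of 136 combinations of gene and comparison (34 genes, 4 comparisons with untreated cells), every treated array of one line lay above its untreated mean and every one of the other line below it. That is 8.09% of the combinations, against 7.15% over all genes, and for SC5D over all 36 h arrays 1 of 34 (2.94%), against 0.548% of all genes. The difference of the changes (GM10861 minus GM10855) was tested with limma for each, and none passed.

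SC5D, the sterol desaturase, met this in all 4 comparisons, though meeting it over all 36 h arrays entails the others. Its difference was -0.36 over all 36 h arrays (adjusted p = 0.307), -0.35 with calcitriol (adjusted p = 0.560), -0.35 with estrogen (adjusted p = 0.799) and -0.38 with both agents (adjusted p = 0.207). The other sterol genes were IDI1 with calcitriol (-0.15; adjusted p = 0.837), MSMO1 with calcitriol (-0.20; adjusted p = 0.805), NSDHL with calcitriol (-0.16; adjusted p = 0.805), CYP51A1 with estrogen (-0.16; adjusted p = 0.816) and DHCR7 with both agents (0.17; adjusted p = 0.665). SREBF1 with both agents gave 0.15 in GM10861 and -0.21 in GM10855, a difference of 0.36 (adjusted p = 0.285). ELOVL6 with calcitriol differed by -0.59 (adjusted p = 0.479), with a change of -0.053 in GM10861 and 0.54 in GM10855.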

How the results depend on the processing

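Over 8 other settings and 24 fits that each left out 1 array, 576 of 600 values of counts and branch medians stayed close to the reported one, and of 1889 values of single genes 39 lost their call, 3 gained one and 0 reversed. Both agents against untreated gave 1 call (ELOVL5) with trend and robust estimation, and 0 to 1 without 1 array. A minimum change of 0.5 left 8 of 28 line calls, and 8 with calcitriol, 9 with estrogen, 10 with both and 9 untreated, which follows from the threshold itself. The call of ELOVL6 in GM10855 became 0 calls over 36 h with all probe sets, array weights, a change of at least 0.5 or only the arrays compared, and 0 with calcitriol with all probe sets or only the arrays compared; the cause was not tested. Without 1 array these counts were 0 to 1 and 0 to 2, the line count was 28 in every fit, and by agent group it was 12 to 13 with calcitriol, 14 to 21 with estrogen, 18 to 21 with both and 16 to 22 untreated. Every other count stayed at 0. No share over all probe sets was counted in these fits. The sterol median of the line difference was 0.13 with cyclic loess and 0.22 to 0.24 without 1 array. The fatty acid median was 0.61 with a mean signal of at least 5, which drops the dim ACACB, and 0.49 to 0.53 without 1 array. No paired analysis was possible because the labels give no replicate numbers that groups share. With no detection values, dim genes have no known limit of signal.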
